A study of Mus musculus with 23 samples.

Results

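Megakaryocyte-primed cells are blood stem and progenitor cells that already carry transcripts of the platelet-forming lineage. They were taken here from mouse bone marrow sorted as KSL cells (c-Kit+, Sca1+, Lineage-), the fraction that holds blood stem cells and multipotent progenitors. Barcodes entered with 1000 or more UMIs (unique molecular identifiers, each standing for 1 captured RNA molecule), 500 or more detected genes and no more than 10% of UMIs from mitochondrial genes. A kept cell counted as megakaryocyte-primed when at least 4 of the 6 markers Pf4, Itga2b, Vwf, Treml1, Rab27b and Cavin2 had a UMI and fewer than 4 of the erythroid markers Klf1, Car1, Ermap, Aqp1, Rhd and Tspo2 did. This rule found 1202 of 78945 kept cells (1.52%), from 97066 deposited barcodes.

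The study asked how loss of Jarid2, a co-factor of Polycomb repressive complex 2 (PRC2), differs from loss of Ezh2, its catalytic subunit. All mice, Controls included, are labelled Mx1-Cre, a Cre recombinase under an interferon-responsive promoter that acts in blood cells and in other tissues. Jarid2 KO animals carried floxed Jarid2 alleles (Jarid2fl/fl, deleted to Jarid2Δ/Δ) and Ezh2 KO animals floxed Ezh2 alleles (Ezh2fl/fl, deleted to Ezh2Δ/Δ). The labels name no drug treatment and do not say which exons were removed. Baseline libraries came from untransplanted mice 2 months of age, where each of the groups Control, Ezh2 KO and Jarid2 KO had 1 male (replicate 1) and 1 female (replicate 2). Transplant libraries held CD45.2 donor KSL cells sorted 18 weeks after 500000 donor cells and 500000 CD45.1 competitor cells were given to lethally irradiated recipients: 1 Control, 2 Ezh2 KO and 2 Jarid2 KO libraries. The labels give neither the sex of these donors nor the number of recipients behind a library, so p-values measure the spread between libraries only. H3K27me3 CUT&Tag samples were not analysed here.

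A megakaryocyte is the large marrow cell that sheds platelets. Its genes are switched on by GATA, ETS and RUNX factors. Part of the stem cell compartment carries such transcripts, von Willebrand factor among them, and platelet-biased stem cells are known for this state. GATA1 with its partner FOG1 (Zfpm1) acts in both the platelet and the red cell lineage, whereas the ETS factor FLI1 favours platelets over red cells.

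Promoters of 4 megakaryocyte genes are shown because GATA and ETS factors are the textbook regulators of this lineage and the genes were high together in the cells described here. Pf4 (platelet factor 4, a granule chemokine) and Itga2b (integrin alpha-IIb, CD41) are markers of the rule, and Gp1bb and Gp9 encode subunits of the receptor for von Willebrand factor. Each sequence runs 5′ to 3′ from 250 bases before to 50 bases after the transcription start, from RefSeq on GRCm38.p6. The windows are chr5:90772185-90772484 on the plus strand (Pf4), chr11:102469834-102470133 on the minus strand (Itga2b), chr16:18622354-18622653 on the minus strand (Gp1bb) and chr6:87777820-87778119 on the plus strand (Gp9). Capitals mark matches on either strand to the GATA words AGATAA, then AGATAG, then TGATAA, then TGATAG or to the ETS words CAGGAA or else CCGGAA, which do not overlap one another.
Pf4: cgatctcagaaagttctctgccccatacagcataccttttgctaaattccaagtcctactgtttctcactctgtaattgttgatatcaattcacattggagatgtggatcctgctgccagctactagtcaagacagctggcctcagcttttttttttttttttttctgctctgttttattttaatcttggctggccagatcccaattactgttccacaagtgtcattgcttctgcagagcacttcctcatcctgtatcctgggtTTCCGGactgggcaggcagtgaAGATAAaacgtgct
Itga2b: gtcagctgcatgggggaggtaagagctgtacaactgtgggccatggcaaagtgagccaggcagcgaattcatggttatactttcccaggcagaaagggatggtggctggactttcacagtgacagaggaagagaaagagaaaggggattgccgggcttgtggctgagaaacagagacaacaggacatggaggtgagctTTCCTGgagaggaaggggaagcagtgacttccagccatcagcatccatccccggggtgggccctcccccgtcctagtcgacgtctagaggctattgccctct
Gp1bb: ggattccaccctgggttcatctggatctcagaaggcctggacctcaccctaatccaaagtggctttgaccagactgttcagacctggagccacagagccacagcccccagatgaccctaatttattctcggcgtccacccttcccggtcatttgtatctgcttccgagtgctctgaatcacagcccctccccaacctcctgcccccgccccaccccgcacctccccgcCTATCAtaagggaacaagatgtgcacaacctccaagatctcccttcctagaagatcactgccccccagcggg
Gp9: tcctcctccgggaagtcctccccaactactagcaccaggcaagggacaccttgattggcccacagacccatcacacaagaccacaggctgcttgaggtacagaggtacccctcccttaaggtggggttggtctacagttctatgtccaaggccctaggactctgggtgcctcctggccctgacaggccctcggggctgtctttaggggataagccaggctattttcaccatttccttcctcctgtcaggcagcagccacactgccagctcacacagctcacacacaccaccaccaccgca
Pf4 held 1 GATA match, starting at +37 from the transcription start, and 1 ETS match, starting at +15. Itga2b held 1 ETS match at -52 and Gp1bb 1 GATA match at -22, while Gp9 held neither. Of the 27025 genes with a promoter in the same RefSeq table, 30.2% held a GATA match and 41.4% an ETS match. Of 41 megakaryocyte genes looked up, 27 had a promoter in the table, and 37.0% of these held a GATA match and 55.6% an ETS match. A match is a string of letters and not a measured binding site.

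Megakaryocyte-primed cells numbered 1106 in the baseline and 96 in the transplant libraries. At baseline the Control libraries held 149 and 328 of them, the Ezh2 KO libraries 161 and 172, and the Jarid2 KO libraries 132 and 164. After transplantation the Control library held 15, the Ezh2 KO libraries 39 and 27, and the Jarid2 KO libraries 11 and 4, so transplant values rest on few cells. Their summed UMIs ran from 2663161 to 6097009 per baseline library and from 63267 to 950155 per transplant library. The median megakaryocyte-primed cell held 17889.5 to 21914 UMIs at baseline, against 10968 to 13019 over all kept cells, and the rule finds a marker more readily in deeper cells. Libraries shared at most 34 kept barcodes, and 0 of those were megakaryocyte-primed in both libraries.

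By number of markers, among kept cells with fewer than 4 of the erythroid markers, 53510 had 0, 17327 had 1, 4792 had 2, 1466 had 3, 574 had 4, 338 had 5 and 290 had all 6. Across the threshold, Pf4 stood at 92.1 CPM (counts per 1e6 counts, from the summed UMIs of the cells) in cells with 3 markers and 293 CPM in cells with 4. Itga2b stood at 74.4 and 112 CPM and Vwf at 26.9 and 43.9 CPM on the same sides, with median depths of 14895 and 17747.5 UMIs. Since these values chose the cells they are a description only. In the baseline libraries Pf4 had a UMI in 70.5% to 93.2% of megakaryocyte-primed cells. In cells with at least 2 of the lymphoid marker genes Dntt, Il7r, Rag1, Cd79a and Ebf1, which should lack Pf4, the share was 1.85% to 3.96%, at median depths of 12308 to 15183 UMIs. This is the background for such shares, and the parts of free RNA and doublets in it were not tested. Rab27b, a granule-transport GTPase, had a UMI in 90.6% to 98.2% of megakaryocyte-primed cells against 1.88% to 6.29% of those lymphoid marker cells. Vwf had one in 53.4% to 71.3% against 0.606% to 1.25%.

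Platelet receptor genes that took no part in the rule were higher in the megakaryocyte-primed cells than in all other kept cells of the same library. These genes come from the same RNA counts that chose the cells, so the differences describe the cells and support nothing. In an edgeR quasi-likelihood fit over summed counts, 18.9% of tested genes were higher and 30.7% lower at an adjusted p under 0.05. Of 19 receptor genes tested, 17 were higher and 1 lower, with a median log2 difference of 2.75 against -0.066 over all genes. Gp1bb, a subunit of the von Willebrand factor receptor, stood at 12.5, 32.9 and 50.8 CPM (lowest, median and highest of 11 libraries) against 0.0765, 0.245 and 0.627 CPM in other cells, a log2 difference of 6.82 ± 0.23 (SE). No library overlapped. Gp9, of the same receptor, stood at 12.5, 49.4 and 76.2 CPM against 4.24, 7.02 and 9.50 CPM, again without overlap. Itgb3, the beta-3 integrin that pairs with Itga2b to bind fibrinogen, stood at 39.2, 61.6 and 112 CPM against 3.20, 5.15 and 10.3 CPM. Log2 differences of 3.84 ± 0.17 (SE) for Gp5, 3.37 ± 0.12 for the ADP receptor P2ry1 and 3.49 ± 0.27 for the thrombin co-receptor F2rl2 were measured over the same libraries. Pecam1, an adhesion molecule of platelets and other blood cells, was lower by a log2 difference of -1.03 ± 0.07 (SE).

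Regulators of the lineage were also higher, 10 of 13 tested, with 2 lower and a median log2 difference of 0.87. Gata1 stood at 24.7, 39.2 and 47.2 CPM (lowest, median and highest of 11 libraries) against 2.71, 4.01 and 10.5 CPM in other cells, without overlap. Log2 differences were 2.83 ± 0.15 (SE) for Gata1, 2.07 ± 0.09 for Zfpm1, 1.81 ± 0.11 for the repressor Gfi1b, 1.59 ± 0.06 for Gata2 and 1.35 ± 0.05 for Fli1. Nfe2, a factor of late platelet formation, differed by 0.23 ± 0.05 (SE), and Lyl1 was lower by a log2 difference of -0.78 ± 0.07 (SE).

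Granule genes went both ways, while most cytoskeleton genes were higher. Of 13 granule and clotting genes tested, 8 were higher and 2 lower (median log2 difference 0.86), and of 20 cytoskeleton and signalling genes 18 were higher and 0 lower (median 1.02). Log2 differences were 3.84 ± 0.31 (SE) for the protease inhibitor Serpine2, 2.72 ± 0.18 for clotting factor F5 and 1.69 ± 0.11 for the granule protein Mmrn1. F13a1, the clotting factor XIII A chain that monocytes also make, was lower by a log2 difference of -2.91 ± 0.21 (SE). The small GTPase Rap1b, which activates the platelet integrin, stood at 494, 703 and 993 CPM against 122, 149 and 172 CPM. Tubb1, the platelet beta-tubulin of mature megakaryocytes, was at a median of 0.269 CPM over the 11 libraries and did not pass the filter on low counts.

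**Figure D1:**
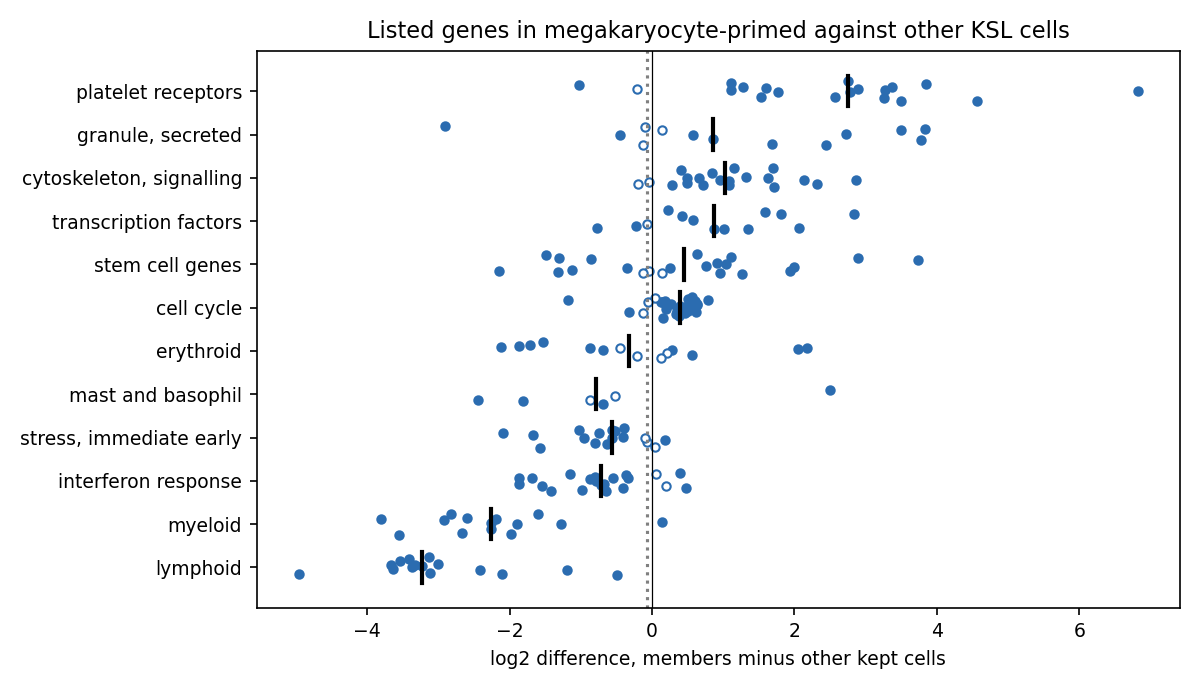
Log2 difference between megakaryocyte-primed and other kept cells of the same libraries, for the tested genes of each list, 1 point per gene (filled where the adjusted p was under 0.05, open otherwise), a bar at the list's median and a dotted line at the median of all genes. Platelet receptors have the highest median (2.75), and lymphoid and myeloid genes lie mostly below 0.

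Stem cell genes split. Of 22 tested, 12 were higher and 7 lower, with a median log2 difference of 0.44. The calcium-activated chloride channel regulator Clca3a1 differed by 3.74 ± 0.25 (SE), Slamf1, which encodes CD150, by 2.89 ± 0.16, Ctnnal1 by 2.00 ± 0.07 and the angiopoietin receptor Tek by 1.94 ± 0.14. Among the 7 lower genes were Procr with -1.49 ± 0.12 (SE), Hlf with -1.32 ± 0.08 and Ly6a, which encodes Sca1, with -2.15 ± 0.12 on the log2 scale. Hlf stood at 46.8, 153 and 251 CPM against 98.4, 433 and 667 CPM in other cells, and was lower in all 11 libraries. Mecom, a stem cell transcription factor, differed by -0.05 ± 0.07 (SE) and was higher in 7 of 11 libraries.

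Lymphoid and myeloid genes were mostly lower than in other cells. Summed over the list, myeloid genes stood at 306.5 to 372.5 CPM in baseline megakaryocyte-primed cells against 717.7 to 1112 CPM in other cells. After transplantation they were not low, at 1393 to 2482 CPM against 8694 to 17550 CPM. All 15 lymphoid genes tested were lower (median log2 difference -3.24) and 13 of 14 myeloid genes were lower (median -2.26). Of 29 cell cycle genes 24 were higher and 2 lower, with Mki67, a proliferation marker, higher by 0.78 ± 0.08 (SE). Interferon-response genes were lower for 17 of 21 tested and immediate stress genes for 13 of 17. Of 14 erythroid genes tested, 4 were higher and 6 lower, the erythropoietin receptor Epor among the higher with 2.17 ± 0.28 (SE). Summed over the list, erythroid genes stood at 616 to 1111 CPM in the megakaryocyte-primed cells against 297 to 1048 CPM in other cells. Of 4 macrophage and stromal genes tested 3 were higher (median 1.02), the endothelial receptor Kdr and the complement genes C1qa and C1qb. Levels were near the floor: the list of 10 summed to 4.71 to 13.4 CPM at baseline against 4.55 to 7.80 CPM in other cells. After transplantation it summed to 0 to 4.21 CPM against 4.41 to 11.0 CPM, lower in each library. The part of such cells in these results was not tested.

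Within the megakaryocyte-primed cells, most receptor genes were higher and most stem cell genes lower in cells with more markers. Of genes at 1 CPM or more, 17 of 19 receptors had a higher mean over the 6 baseline libraries with 5 or 6 markers than with 4 (11 in every library), and 18 of 22 stem cell genes a lower one (13 in every library), beside 5576 higher and 7570 lower of all 13146 genes. Exceptions were Clca3a1 (29.4 against 21.0 CPM) and Ctnnal1 (50.6 against 45.8 CPM) among stem cell genes and Esam (36.7 against 44.3 CPM) among receptors. Cells with 5 or 6 markers had a mean of 43.6 CPM of Gp1bb against 10.5 CPM in cells with 4, and were higher in 6 of 6 libraries. Clec1b, the podoplanin receptor, stood at 11.9 against 1.56 CPM and Itgb3 at 80.7 against 32.4 CPM. Hlf stood at 144 against 294 CPM, Mecom at 452 against 775 CPM and Procr at 2.79 against 16.4 CPM. The number of markers belongs to the rule and deeper cells show more markers, so these are descriptions without a test.

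Megakaryocyte-primed cells were next set beside the erythroid-primed cells of the same sort, chosen by the mirror rule (at least 4 of the 6 erythroid markers and fewer than 4 of the megakaryocyte markers). There were 644 of these, and 4 further cells passed both counts of 4. Only the 6 baseline libraries had enough of them to compare. In this fit 37.0% of tested genes were higher and 35.8% lower in the megakaryocyte-primed cells, and both rules chose on these RNA counts, so nothing is read from the calls. All 18 platelet receptor genes tested were higher (median log2 difference 4.50, against 0.015 over all genes), as were 20 of 21 stem cell genes (median 2.48). Fli1 stood at 560, 695 and 791 CPM (lowest, median and highest of 6 libraries) against 31.0, 43.1 and 69.8 CPM, and Mecom was higher by 3.46 ± 0.15 on the log2 scale. Of 13 regulators tested 8 were higher and 3 lower (median 0.58). The lower ones were Gata1, at 23.5, 35.8 and 42.2 CPM against 109, 112 and 119 CPM, Gfi1b, with a log2 difference of -1.08 ± 0.08 (SE), and the adaptor Ldb1 with -1.17 ± 0.07. Zfpm1 was higher by 0.58 ± 0.07, Nfe2 by 0.83 ± 0.08 and Gata2 by 1.56 ± 0.11, while Tal1 differed by 0.06 ± 0.06 and did not pass. Gp1bb had 686 UMIs in the megakaryocyte-primed cells and 0 in the erythroid-primed cells of these libraries, at least 231-fold higher against a floor of 3 counts over the group. Stress genes were higher for 12 of 14 and cell cycle genes for 7 of 29 with 15 lower. Erythroid-primed cells were deeper, with median depths of 27484.5 to 42037 UMIs, and the part of depth in these differences was not tested.

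Surface proteins were read with DNA-tagged antibodies in the 6 baseline libraries and took no part in the rule. CD150 marks long-term stem cells and megakaryocyte progenitors, low CD48 marks long-term stem cells, and CD117 (c-Kit) is part of the KSL sort. CD135 (Flt3) marks lymphoid-biased progenitors, and CD201 is the protein product of Procr. CD150 was the protein that differed most. Its median count per megakaryocyte-primed cell was 252 and 189.5 in Control, 253 and 302.5 in Ezh2 KO, with 221 and 211 in Jarid2 KO, against 12 to 22 in other cells. On log2(count + 1) centred within each cell, CD150 was higher by 2.89 ± 0.34 (SD, n = 6 libraries), in 6 of 6 libraries (exact permutation p = 0.0312, two-sided, adjusted over 6 antibodies 0.0375). That p is the smallest the 6 libraries allow. CD135 was lower by a difference of -1.59 ± 0.23 and CD48 by -0.98 ± 0.34, each in 6 of 6 libraries with the same exact p. CD117 was higher by 0.34 ± 0.16 and Sca1, read by streptavidin-PE, differed by -0.59 ± 0.09 (SD, n = 6), with the same exact p as well. CD201 differed by -0.07 ± 0.13 (exact p = 0.188), while without centring it was higher by 0.33 in 6 of 6 libraries. Centring over 6 antibodies ties each value to the others, the large CD150 difference included. Without centring the differences were 3.28 for CD150, 0.74 for CD117, -1.19 for CD135, -0.58 for CD48 and -0.20 for Sca1. Their directions were the same in 6 of 6 libraries, but the Sca1 and CD48 differences were smaller.

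CD48 was lower than in other cells but not absent. Its median count was 327 and 491.5 in Control, 742 and 587 in Ezh2 KO, with 216 and 321 in Jarid2 KO, against 436 to 1565 in other cells. Cells above the 90th percentile of CD150 and below the median of CD48 of their library made up 40.2% to 65.2% of megakaryocyte-primed cells against 6.11% to 7.62% of other cells. Read the other way, megakaryocyte-primed cells were 10.9% to 21.0% of all cells in that region. Erythroid-primed cells had median CD150 counts of 42 to 133 and CD48 counts of 817 to 1329. Their median CD135 was 12 to 20, against 12 to 16 in megakaryocyte-primed and 27 to 47 in other cells. CD117 was 367 to 563 against 310.5 to 427.5 in megakaryocyte-primed cells, and Sca1 266 to 367 against 307 to 424.5. Low CD135, high CD117 and low Sca1 were thus shared by both primed classes, which were not tested against each other.

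**Figure D2:**
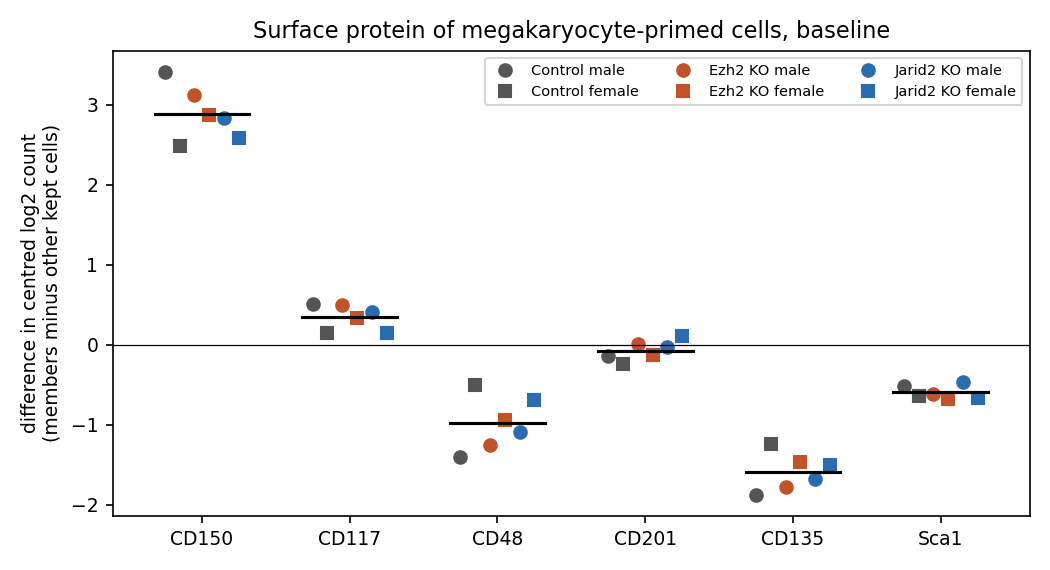
Difference in centred log2 antibody counts between megakaryocyte-primed and other cells, 1 point per baseline library (circles male, squares female), with a bar at the mean. CD150 lies between 2.48 and 3.41, CD135 and CD48 lie below 0, and CD201 straddles 0.

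The share of megakaryocyte-primed cells was low in every library and no difference between genotypes passed the test. At baseline it was 2.08% and 3.88% in Control, 1.70% and 1.71% in Ezh2 KO, with 1.70% and 2.18% in Jarid2 KO (exact binomial 95% intervals for the Control libraries 1.76% to 2.44% and 3.48% to 4.32%, counting error only). Both Ezh2 KO libraries lay below both Controls, a ratio of mean shares of 0.572 (log2 -0.81, exact two-sided permutation p = 0.333). The Jarid2 KO and Control libraries overlapped, at a ratio of 0.650 (log2 -0.62, exact p = 0.667), and the Jarid2 KO to Ezh2 KO ratio was 1.14 (exact p = 1). That overlap was between sexes: within each sex both knockouts lay below Control, Jarid2 KO at ratios of 0.815 (male) and 0.561 (female) and Ezh2 KO at 0.815 and 0.441. Permuting genotype within sex gave an exact p of 0.5 for each, the smallest that 2 pairs allow. With 2 libraries against 2 the smallest exact p is 0.333. The female Control library set most of the Control level, since its share was 1.87 times that of the male, against 1.01 in Ezh2 KO and 1.28 in Jarid2 KO. Without Control replicate 2 the log2 ratios were -0.29 for Ezh2 KO and -0.10 for Jarid2 KO. The shares count all kept cells, including those with at least 2 of the lymphoid marker genes named above. Such cells made up 13.1% and 5.91% of other cells in Control, 34.7% and 20.5% in Ezh2 KO, with 6.23% and 6.72% in Jarid2 KO. Their part in these ratios and in the order of the libraries was not tested.

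After transplantation the share was 0.322% in the Control library (exact binomial 95% interval 0.180% to 0.530%), 0.588% and 0.427% in Ezh2 KO, with 0.202% and 0.0739% in Jarid2 KO. Both Ezh2 KO libraries lay above the Control and both Jarid2 KO libraries below it. With a single Control library, no test of the shares against it was run. The Jarid2 KO to Ezh2 KO ratio was 0.272 (log2 -1.88, exact permutation p = 0.333), without overlap. With every kept cell thinned to 5000 UMIs and shallower cells left out, the Control, Ezh2 KO and Jarid2 KO shares became 0.175%, 0.159% and 0.154%, and 0.0649% and 0.0201%, so the Ezh2 KO excess over the Control was gone, at a log2 ratio of -0.16. With male cells only the log2 ratio to Control was 0.54 for Jarid2 KO, in place of -1.22, and 2.29 for Ezh2 KO. Both ratios rest on 1 megakaryocyte-primed cell among 844 male Control cells. Megakaryocyte-primed cells with Xist and no Y-linked UMI were 86.7% in Control, 0 in both Ezh2 KO libraries, and 27.3% and 100% in Jarid2 KO. Of all kept cells such cells were 59.4% in Control, 47.7% and 48.9% in Jarid2 KO, and under 0.05% in Ezh2 KO. Sex and genotype therefore cannot be told apart in the Ezh2 KO shares. Among cells with Xist and no Y-linked UMI both Jarid2 KO shares lay below that of Control, from few cells and without a test. Cells with at least 2 of the lymphoid marker genes made up 3.1% of other cells in Control and 20.9% and 16.6% in Ezh2 KO. In Jarid2 KO they made up 5.09% and 5.64%, and their part in the shares was not tested. Baseline and transplant libraries were made with different software versions and sorts, and their shares are not compared as a difference.

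**Figure D3:**
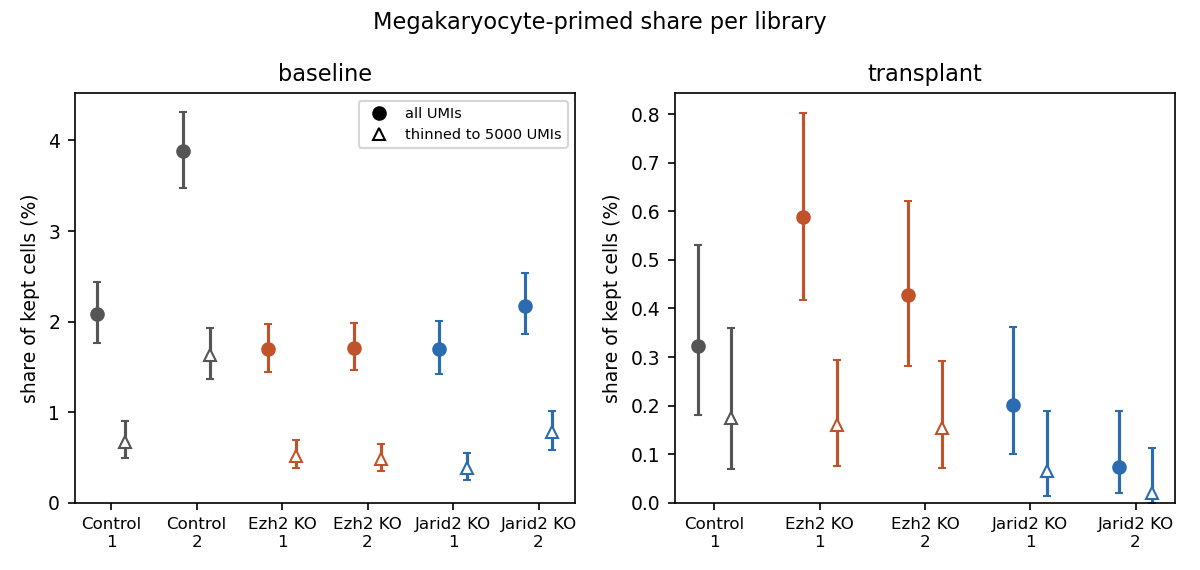
Megakaryocyte-primed cells as a percent of kept cells in each library, with exact binomial 95% intervals, for all UMIs (filled circles) and with cells thinned to 5000 UMIs (open triangles). At baseline the female Control library stands highest at 3.88%, and after transplantation the Jarid2 KO libraries stand lowest.

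Transcripts of the targeted genes were read at their 3′ ends, and the labels do not name the removed exons. These reads are therefore no check of the deletion, and the genotypes below are those of the labels. Ezh2 in megakaryocyte-primed cells at baseline stood at 241 and 247 CPM in Control, 198 and 184 in Ezh2 KO, with 220 and 253 in Jarid2 KO, a log2 change of -0.35 ± 0.10 (SE) in Ezh2 KO that missed the threshold (edgeR adjusted p = 0.261). After transplantation Ezh2 stood at 303 CPM in Control, 47.0 and 59.2 in Ezh2 KO, with 180 and 298 in Jarid2 KO, and fell by 2.55 ± 0.31 (SE) on the log2 scale in Ezh2 KO (edgeR adjusted p = 3.7e-05, DESeq2 adjusted p = 0.0565). Jarid2 at baseline stood at 179 and 206 CPM in Control, 178 and 195 in Ezh2 KO, with 246 and 285 in Jarid2 KO. It was not lower in the libraries labelled Jarid2 KO: both lay above all others (log2 0.51 ± 0.09 against Ezh2 KO, edgeR adjusted p = 0.0147, and 0.46 ± 0.09 against Control, adjusted p = 0.0558). In the transplant Jarid2 KO libraries it stood at 71.2 and 14.2 CPM, the latter from 1 UMI, against 64.3 CPM in Control.

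In baseline Jarid2 KO no listed platelet gene passed the test, and a small group of other genes rose. In the edgeR quasi-likelihood fit with genotype and sex, 9 genes rose and 11 fell against Control, 0.170% of 11797 tested. None of the 13 regulators, 19 receptors, 12 granule and 20 cytoskeleton genes of the platelet lineage tested was among them. The medians of these lists were 0.12, 0.034, 0.043 and 0.026 on the log2 scale, against 0.0034 over all genes. At an unadjusted p under 0.05, 793 of all tested genes passed, and DESeq2 called 7. The baseline edgeR fit took each gene's spread mostly from all genes together, with 13.7 prior degrees of freedom against 2 residual ones. Its p-values for all 3 genotype comparisons thus measure the spread of a single gene between libraries only in part. Meg3, an imprinted long non-coding RNA, stood at 3.00 and 3.28 CPM in Control, 4.11 and 5.00 in Ezh2 KO, with 29.9 and 13.8 in Jarid2 KO, a log2 rise of 2.63 ± 0.34 (SE, adjusted p = 0.00261). Its UMIs came from 20 and 12 of the Jarid2 KO cells and from 4 and 9 of the Control cells. Airn, the imprinted antisense RNA of the Igf2r locus, stood at 46.3 and 45.6 CPM in Control, 58.6 and 65.2 in Ezh2 KO, with 103 and 89.2 in Jarid2 KO, a log2 rise of 1.05 ± 0.12 (adjusted p = 0.000787). Whether the counting used strand is not given in the sources used here, so Airn reads and those of Igf2r may not be told apart. Il1rapl2, an interleukin-1 receptor family member, rose by 1.15 ± 0.13 (113 and 60.6 CPM in Control, 220 and 153 in Jarid2 KO, adjusted p = 0.000787), and the endocytic adaptor Itsn1 by 0.82 ± 0.11 (adjusted p = 0.00261).

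Among smaller rises, Mycn, a growth-promoting transcription factor on the list of PRC2-repressed genes, stood at 60.6 and 62.2 CPM in Control, 58.3 and 64.1 in Ezh2 KO, with 91.6 and 92.7 in Jarid2 KO (log2 0.59 ± 0.11, edgeR adjusted p = 0.0440). It was the 1 called gene of the 8 tested on that list. Pdzk1ip1, a membrane protein of stem cells, was the 1 called of 22 stem cell genes, at 50.3 and 58.5 CPM in Control and 90.1 and 83.7 in Jarid2 KO (log2 0.65 ± 0.12, adjusted p = 0.0476). Cbfa2t3, a co-repressor of the GATA1 and TAL1 complex, rose by 0.58 ± 0.10 (adjusted p = 0.0204) and the metalloprotease Mmp16 by 1.43 ± 0.24 (adjusted p = 0.0231). The early-response gene Fosb fell from 108 and 104 CPM to 78.2 and 48 CPM (adjusted p = 0.0231). Mycn and Pdzk1ip1 were not called by DESeq2 or without any 1 of the 4 Control and Jarid2 KO libraries, and without predicted doublets the adjusted p values were 0.0630 for Meg3, 0.208 for Mycn and 0.142 for Pdzk1ip1. Without Control replicate 2, of the genes named here Meg3, Il1rapl2 and Airn were still called. Without the sex term 3 genes were called, Meg3, Airn and Ctsg. In cells with at least 5 of the 6 markers 8 of the 20 genes were still called, Itsn1, Cbfa2t3 and Fosb among them, while Meg3 (adjusted p = 0.298), Airn (0.295), Il1rapl2 (0.279), Mmp16 (0.717), Mycn (0.148) and Pdzk1ip1 (0.0822) were not. Predicted doublets were 6.71% to 14.0% of megakaryocyte-primed cells and 5.70% to 7.93% of other cells in the baseline libraries.

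The other genes that fell belonged mostly to other lineages, the B-lineage genes Ebf1, Vpreb3, Vpreb1 and Cd79a and the neutrophil granule genes Mpo and Ctsg. Few cells carried them. Ebf1, a B-cell transcription factor, stood at 16.6 and 23.1 CPM in Control and 1.87 and 0.271 CPM in Jarid2 KO (edgeR adjusted p = 0.00473). In Control replicate 1, 46 of its 50 UMIs came from 1 of 5 positive cells, and in replicate 2, 106 of 141 UMIs from 1 of 5, whereas the Jarid2 KO libraries held 5 UMIs in 4 cells and 1 UMI in 1 cell. Mpo in Control replicate 1 likewise had 37 of 41 UMIs in 1 cell, and without predicted doublets its log2 change was 0.01. With at least 5 markers Mpo and Ctsg were still called, and Ebf1 (edgeR adjusted p = 0.0822), Vpreb1 (0.922) and Cd79a (0.329) were not. Of 13 lymphoid genes tested 3 fell and 0 rose, and of 8 myeloid genes 2 fell. What such cells contribute was not tested beyond these counts.

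In baseline Ezh2 KO B-lineage transcripts rose and 2 listed platelet genes fell. Against Control 28 genes rose and 4 fell, 0.271% of 11797 tested (edgeR), with 801 at an unadjusted p under 0.05, and DESeq2 called 9. Of 13 lymphoid genes tested 6 rose and 0 fell, with a median log2 change of 1.36 against -0.0015 over all genes. Ebf1 stood at 16.6 and 23.1 CPM in Control and 129 and 52.5 in Ezh2 KO (log2 1.96 ± 0.25, edgeR adjusted p = 0.00116). Vpreb3, of the surrogate light chain family, stood at 7.32 and 8.70 against 82.1 and 31.6 CPM (log2 2.59 ± 0.26, adjusted p = 0.000289), and Dntt, the enzyme that adds bases at immunoglobulin joints, at 7.99 and 8.37 against 55.0 and 36.1 CPM (log2 2.46 ± 0.31, adjusted p = 0.00116). Satb1, a chromatin organiser of lymphoid progenitors, rose from 13.3 and 16.3 to 46.0 and 32.5 CPM (adjusted p = 0.00428).

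The other kept cells of the same libraries were rich in the same transcripts, at 449 and 124 CPM of Ebf1 in Control, 1225 and 608 in Ezh2 KO, with 187 and 189 in Jarid2 KO. Cells with at least 2 of the 5 lymphoid marker genes made up 34.7% and 20.5% of other cells in Ezh2 KO against 13.1% and 5.91% in Control. Among megakaryocyte-primed cells 12 and 8 (7.45% and 4.65%) were such cells in Ezh2 KO against 1 and 2 in Control. With these cells removed the log2 changes were 2.16 for Ebf1 (edgeR adjusted p = 0.321), 1.89 for Dntt (0.0934) and 1.13 for Satb1 (0.0616), none of them called, while Mid1, Dock3, Igkc, Pde1c and Hmga2 were. The removal uses Ebf1 and Dntt themselves, so the lost calls of these genes follow in part from it and support nothing. DESeq2 called Vpreb1 but not Ebf1, Vpreb3, Dntt or Satb1. With at least 5 of the 6 markers 19 of the 32 genes were still called by edgeR, Vpreb3, Dntt and Satb1 among them, and Ebf1 (adjusted p = 0.0967) and Vpreb1 (0.261) were not. Igkc, the immunoglobulin kappa chain, rose in both knockouts, from 9.99 and 15.3 CPM in Control to 27.4 and 46.9 in Ezh2 KO and to 40.0 and 33.3 in Jarid2 KO, beside 2124 to 5385 CPM in other cells. How far such cells or free RNA carry these changes was not tested.

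**Figure D4:**
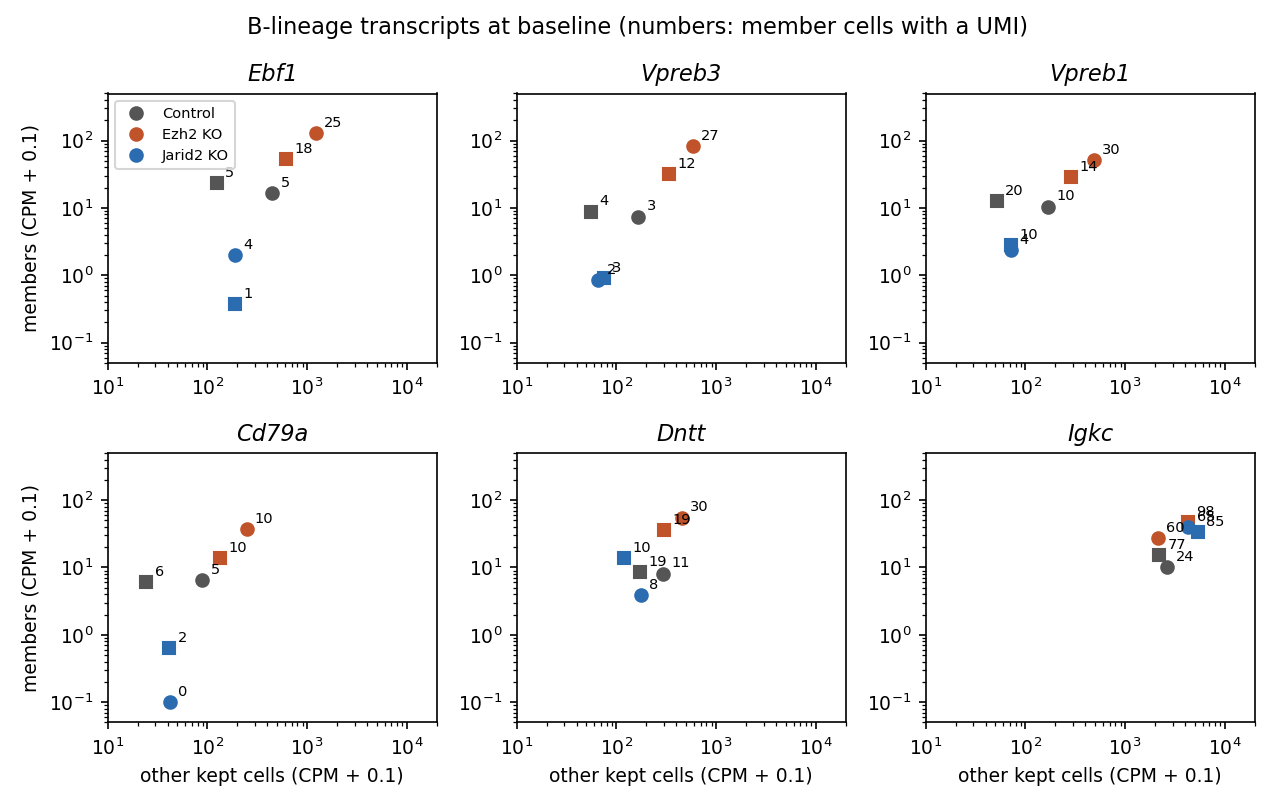
Level of 6 B-lineage genes in megakaryocyte-primed cells (members, vertical, CPM + 0.1, log axis) against the other kept cells of the same baseline library (horizontal, CPM + 0.1, log axis), circles for male and squares for female libraries, with the number of megakaryocyte-primed cells that had a UMI beside each point. Ezh2 KO libraries lie highest on both axes for Ebf1.

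Outside the B lineage, Pde1c, a calmodulin-dependent phosphodiesterase, stood at 50.3 and 37.9 CPM in Control, 14.5 and 15.8 in Ezh2 KO, with 40.4 and 43.4 in Jarid2 KO. Its log2 change in Ezh2 KO was -1.51 ± 0.17 (SE, edgeR adjusted p = 0.000593) and in the other kept cells -1.74 (adjusted p = 0.0072), so the fall was measured in both. Hmga2, a fetal chromatin protein repressed by PRC2, stood at 15.7 and 12.8 CPM in Control, 40.0 and 36.9 in Ezh2 KO, with 18.3 and 18.7 in Jarid2 KO. It rose by 1.45 ± 0.17 (adjusted p = 0.000614), with 1.43 in other cells, and was the 1 called of 8 PRC2-repressed genes. Mid1, a microtubule-bound ubiquitin ligase, rose by 1.66 ± 0.27 (adjusted p = 0.00991), from 4.00 and 16.8 CPM to 31.2 and 37.8 CPM. After transplantation Mid1 was not among the tested genes, and both Ezh2 KO libraries lay below the single Control library. Without predicted doublets Hmga2 and Mid1 had adjusted p values of 0.0604 and 0.0593, while Pde1c was still called, and Mid1 was also not called without the sex term (0.236).

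Of the platelet genes, Clec1b was the 1 called of 19 receptors and Clu, a granule chaperone, the 1 called of 12 granule genes, and 0 of 13 regulators and 0 of 20 cytoskeleton genes were called by edgeR. Clec1b stood at 10.3 and 17.7 CPM in Control, 5.20 and 3.89 in Ezh2 KO, with 3.37 and 5.42 in Jarid2 KO, so both knockouts lay below both Controls. Its log2 change was -1.62 ± 0.32 (SE) in Ezh2 KO (adjusted p = 0.0463) and -1.67 ± 0.33 in Jarid2 KO (adjusted p = 0.0558). Clu stood at 18.3 and 16.3 CPM in Control and 8.21 and 6.11 in Ezh2 KO (log2 -1.26 ± 0.24, adjusted p = 0.0322). Neither was called by DESeq2, without predicted doublets, or without Control replicate 2, where Clec1b had an adjusted p of 0.699 and Clu of 0.120. Clu also missed the threshold without Control replicate 1 (adjusted p = 0.0689) and both did without Ezh2 KO replicate 2 (0.457 and 0.218), while with at least 5 markers Clu (0.254) was lost and Clec1b was not. Median log2 changes were -0.15 over the receptors and -0.06 over the granule genes. Among the rule's own markers, which enter no call, Vwf changed by -0.38, Cavin2 by -0.42 and Pf4 by -0.17 on the log2 scale.

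The knockouts were also compared with each other. In Jarid2 KO against Ezh2 KO 27 genes were higher and 55 lower, 0.695% of 11797 tested (edgeR), with 1108 at an unadjusted p under 0.05 and 17 called by DESeq2. Few platelet genes were called, all of them higher: 1 of 19 receptors (Selp), 2 of 12 granule genes (Clu and Mmrn1), 1 of 20 cytoskeleton genes (Mylk) and 0 of 13 regulators. The medians of these lists were 0.21, 0.060, 0.12 and 0.081 on the log2 scale, against 0.0034 over all genes. Selp, the adhesion receptor P-selectin, stood at 28.3 and 48.8 CPM in Control, 19.2 and 30.5 in Ezh2 KO, with 44.5 and 61.2 in Jarid2 KO (log2 1.09 ± 0.14, edgeR adjusted p = 0.00134). Male and female libraries differed within each genotype, and within each sex Jarid2 KO was higher. Mmrn1 stood at 132 and 120 CPM in Control, 98.5 and 103 in Ezh2 KO, with 169 and 160 in Jarid2 KO (log2 0.71 ± 0.10, adjusted p = 0.00201). Clu differed by 1.72 ± 0.24 (adjusted p = 0.0018) and Mylk, the myosin light chain kinase, by 1.34 ± 0.23 (adjusted p = 0.00982). Against Control, Selp changed by 0.45 ± 0.13 in Jarid2 KO and -0.64 ± 0.14 in Ezh2 KO, and neither passed the threshold (adjusted p = 0.383 and 0.106). Both comparisons share the Control libraries. Without the sex term the Jarid2 KO to Ezh2 KO difference in Selp had an adjusted p of 0.171, without predicted doublets that in Mmrn1 had 0.0522, and Mylk was not called by DESeq2 or without replicate 2 of either knockout (0.158 and 0.0636 without Jarid2 KO and Ezh2 KO replicate 2).

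Meg3 (log2 2.20, edgeR adjusted p = 0.00375), Il1rapl2 (1.26, adjusted p = 8.93e-05), Pde1c (1.48, adjusted p = 0.000584) and the cell cycle inhibitor Cdkn1c (1.09, adjusted p = 0.0173) were also higher in Jarid2 KO than in Ezh2 KO. Hmga2 was lower by a log2 difference of -1.04 ± 0.17 (adjusted p = 0.00627). Meg3 and Hmga2 were not called by DESeq2 or without predicted doublets, and Meg3 was not called without Jarid2 KO replicate 1 (adjusted p = 0.157) or Ezh2 KO replicate 1 (0.0799). Of 13 lymphoid genes 7 were lower, Ebf1 by a log2 difference of -6.44 and Vpreb1 by -3.92. The Jarid2 KO cells held very few Ebf1 UMIs, as given above, so its value is no measure of size. With at least 5 of the 6 markers 43 of the 82 genes were still called, and Meg3 (adjusted p = 0.468), Il1rapl2 (0.0844), Cdkn1c (0.653) and Selp (0.0573) were not. With cells carrying 2 of the lymphoid marker genes removed, 48 genes were called in place of 82, 46 of them shared.

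**Figure D5:**
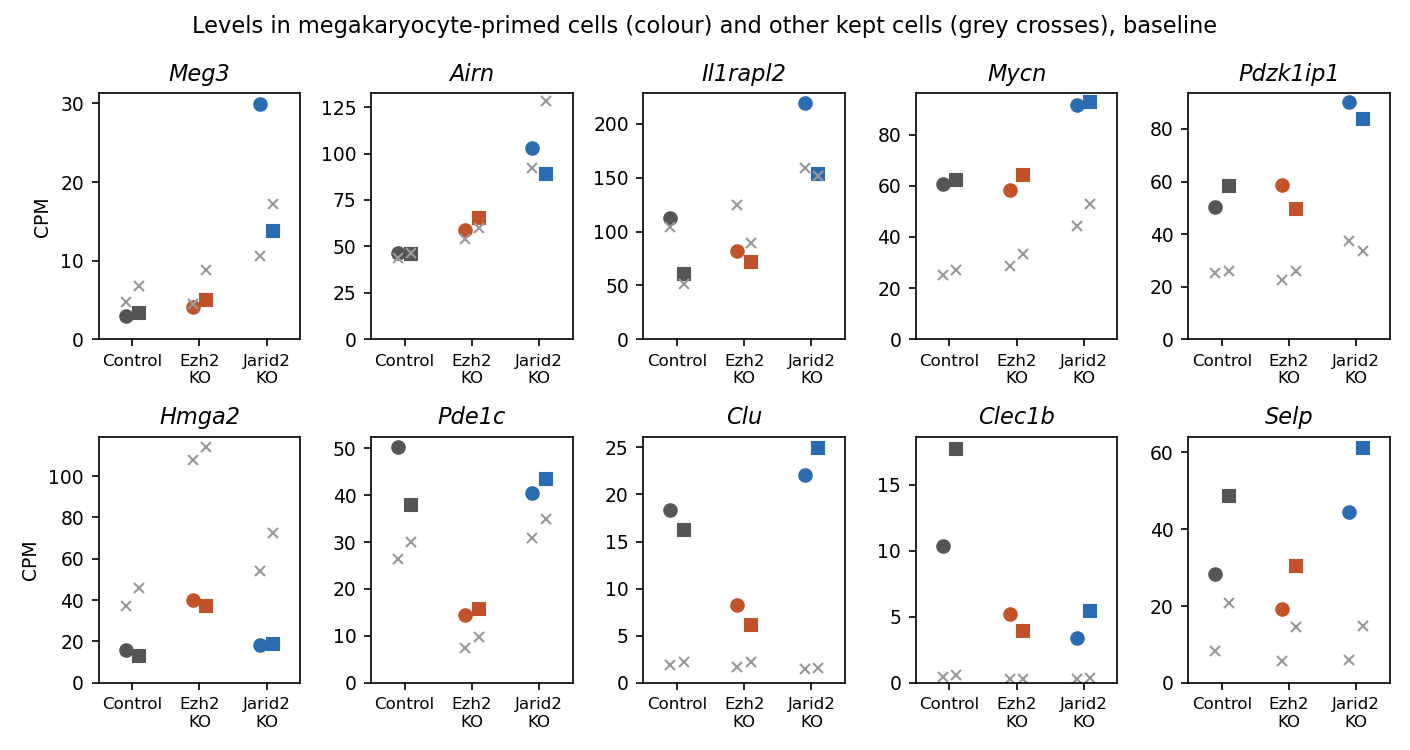
Levels (CPM) of genes named for baseline genotype differences in megakaryocyte-primed cells, 1 point per library, by genotype, circles for male and squares for female mice, with grey crosses for the other kept cells of the same library. Meg3, Airn and Il1rapl2 are highest in Jarid2 KO, and Pde1c is lowest and Hmga2 highest in Ezh2 KO.

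Whether a genotype change differed between megakaryocyte-primed and other cells of the same libraries was tested with an interaction term at baseline. For Jarid2 KO 33 genes had a higher and 15 a lower change in megakaryocyte-primed cells, 0.269% of 17866 tested, and for Ezh2 KO 73 and 129, 1.13%. DESeq2 called 2 and 27. For Jarid2 KO the difference in Selp was 0.96 on the log2 scale (edgeR adjusted p = 0.000101): other cells stood at 8.34 and 20.8 CPM in Control and 5.94 and 14.9 in Jarid2 KO, while megakaryocyte-primed cells were higher in Jarid2 KO within each sex. Cdkn1a, the p21 cell cycle inhibitor, differed by 1.66 (adjusted p = 0.000545), with 2.66 and 4.76 CPM in Control and 13.5 and 6.23 in Jarid2 KO megakaryocyte-primed cells, against 13.6 and 9.39 and then 8.30 and 7.50 in other cells. For Ezh2 KO, 11 of 29 cell cycle genes had a lower change and 0 a higher one. Summed over that list, megakaryocyte-primed cells stood at 3783 and 3680 CPM in Control and 3839 and 3887 in Ezh2 KO. The other cells stood at 2704 and 2465 against 3408 and 2992 CPM, so the larger rise was in them. They also held more lymphoid marker cells in Ezh2 KO, and the part of these was not tested. For Ezh2 KO, Serpine2 differed by -1.77 (adjusted p = 3.43e-11). Serpine2 stood at 43.3 and 68.1 CPM in Control and 65.4 and 37.8 in Ezh2 KO megakaryocyte-primed cells, and at 1.06 and 1.59 against 3.44 and 5.01 CPM in other cells. DESeq2 called none of these 3 genes. The edgeR fit took each gene's spread almost wholly from all genes together, with 373 prior degrees of freedom against 3 residual ones. Its p-values therefore hardly measure the spread of a single gene between libraries. The Selp difference was lost without Control replicate 2 (adjusted p = 0.498) or Jarid2 KO replicate 1 (0.290), and that of Cdkn1a without Control replicate 1 (0.1001) or Jarid2 KO replicate 1 (0.5998). Without Control replicate 2 the Ezh2 KO count was 56 in place of 202, and without Ezh2 KO replicate 1 it was 68.

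Transplant comparisons rest on 96 megakaryocyte-primed cells and on 1 Control library, whose spread is taken from the knockout libraries. Here too edgeR took each gene's spread mostly from all genes together, with 23.3 prior degrees of freedom against 2 residual ones. Of 5728 genes tested, edgeR called 1 in Jarid2 KO against Control (0.0175%), 4 in Ezh2 KO against Control (0.0698%) and 17 in Jarid2 KO against Ezh2 KO (0.297%). DESeq2 called 0, 1 and 3, and 244, 284 and 311 genes had an unadjusted p under 0.05. No platelet regulator, receptor, granule or cytoskeleton gene was called by edgeR in any of them, of 11, 16, 5 and 16 tested. Gata1 stood at 49.2 CPM in Control, 43.7 and 41.0 in Ezh2 KO, with 45.0 and 28.4 in Jarid2 KO. Meg3, Il1rapl2 and Mmp16 had 0 UMIs in the megakaryocyte-primed cells of all 5 libraries. A count of 0 allows up to 3 UMIs, which is 11.0 CPM in Control, 3.16 and 6.76 in Ezh2 KO, with 10.9 and 47.4 in Jarid2 KO. For Il1rapl2 these limits lie below the level of every baseline library (60.6 to 220 CPM). It was also low in the other kept cells after transplantation, at 0.054 to 0.70 CPM against 51.5 to 159 CPM in the other cells at baseline. How introns were counted is not given in the sources used here for either software version, and its part in this difference was not tested.

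Cpa3, a mast cell protease, stood at 11.4 CPM in the transplant Control, 163 and 114 in Ezh2 KO, with 7.50 and 28.4 in Jarid2 KO (edgeR adjusted p = 0.00355 against Control and 0.000555 between the knockouts). The Control value rests on 3 UMIs, DESeq2 did not call the gene, and without Jarid2 KO replicate 1 the adjusted p between the knockouts was 0.112. In Ezh2 KO 20 and 12 cells carried 149 and 50 UMIs, with 47 and 26 in the richest cell, and the other kept cells of all 5 libraries stood at 122 to 172 CPM. Nupr1, a stress-induced chromatin protein, stood at 3.78 CPM in Control, 6.56 and 11.4 in Ezh2 KO, with 112 and 99.4 in Jarid2 KO, from 1, 6, 5, 30 and 7 UMIs (log2 3.68 between the knockouts, adjusted p = 0.000555). In other cells it stood at 3.90, 0.726 and 0.703, and 4.34 and 3.08 CPM. Ptms, a small acidic nuclear protein, was the gene called against Control in Jarid2 KO, at 18.9 CPM in Control, 66.7 and 84.2 in Ezh2 KO, with 176 and 128 in Jarid2 KO (adjusted p = 0.0312). It was not called by DESeq2 or without predicted doublets (adjusted p = 0.0548), or without Jarid2 KO replicate 1 (0.0595).

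Of the 17 genes that differed between the transplanted knockouts, 7 were histone genes, all lower in Jarid2 KO, of 24 tested with a symbol of the Hist series, against 0.297% called over all genes. These genes were no list of the study and were grouped after their values were seen, in Jarid2 KO libraries of 11 and 4 cells. Among the called histone genes were Hist1h2ap with a log2 difference of -3.54 and Hist1h1b with -1.93. These copies are near-identical and counts may be split among them. The remaining called genes included Ezh2 (log2 2.04, edgeR adjusted p = 0.000555), and Dntt, which had 109 and 29.6 CPM in Ezh2 KO and 0 in both Jarid2 KO libraries. Xist, the RNA of the inactive X chromosome, and its antisense partner Tsix were also called, at 1820 CPM of Xist in Control, 1.09 and 0 in Ezh2 KO, with 652 and 1576 in Jarid2 KO. As for the Ezh2 KO shares, donor sex and genotype cannot be told apart here. With male cells only, which leaves 1 cell in Control and 0 in Jarid2 KO replicate 2, 26, 79 and 119 genes were called in the 3 comparisons in the order above. These held 0 of the 1, 0 of the 4 and 11 of the 17 genes called with all cells. Leaving out Jarid2 KO replicate 1 raised the counts to 72, 36 and 68, with 0 of the 1, all of the 4 and 9 of the 17 among them, and leaving out replicate 2, which holds 4 cells, gave 40 between the knockouts, with all 17 among them.

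The transplant interaction test found 4 genes with a higher and 4 with a lower change in megakaryocyte-primed than in other cells for Jarid2 KO (0.0539% of 14840), and likewise 4 and 4 for Ezh2 KO (0.0539%). DESeq2 called 0 and 0, and 553 and 541 genes had an unadjusted p under 0.05. In this edgeR fit the spread was taken wholly from all genes together, so its p-values do not measure that of a single gene. Ptms differed by 2.93 for Jarid2 KO and Cpa3 by 3.51 for Ezh2 KO on the log2 scale, the latter against a Control of 3 UMIs.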

How the data were processed

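KSL cells were profiled in 11 droplet libraries with 3′ chemistry (Chromium v3.1, per the labels' protocols), 6 baseline and 5 transplant. The authors deposited raw UMI counts per gene or antibody and barcode, all whole numbers. Per the file headers Cell Ranger 7.2.0 made the baseline counts and 6.1.2 the transplant counts, while the submitters' processing notes name Cell Ranger 3.1.0 and mm10. Not given in the sources used here are the annotation, strand rule and intron handling.

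Counts were summed over megakaryocyte-primed cells per library. edgeR 4.0.16 (R 4.3.3) ran TMM scaling, filterByExpr and two-sided quasi-likelihood tests with Benjamini-Hochberg adjustment at 0.05 over all genes. Baseline fits had genotype and sex, transplant fits genotype, and comparisons between cell classes kept the library as a block. CPM are TMM-scaled per fit. The 12 rule genes enter no call. DESeq2 1.42.0 and the other settings are alternatives, and the tests were tested on simulated data. Doublets were left in, since Scrublet's automatic threshold marked 0 to 3 cells in 10 libraries and 116 in the other. The alternative without doublets drops the highest scores, 0.8% per 1000 kept cells of the library. Barcodes that failed the cell filter are not counted in that rate. Barcodes over the mitochondrial limit were 2.82% to 5.82% at baseline and 25.7% to 43.4% after transplantation. Antibody counts were taken as log2(count + 1), centred within each cell. The number of UMIs limits precision, and intervals cover counting error only. Named genes are up to 10 per direction with the largest change past the threshold, a mean of at least 10 CPM, an established symbol and groups that did not overlap (for comparisons within libraries, the same direction in each), plus Jarid2, Ezh2, the rule genes and members of the lists. Genes named beyond these were chosen after their values were seen. Members and lists were chosen with earlier results of these data known. Items that may not be printed are not reported here.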

Additional observations from a re-analysis of the deposited data

Results flagged for a closer look

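For several genes the genotype change differed between megakaryocyte-primed cells and the other kept cells of the same libraries, by the interaction test in edgeR. The values are differences of log2 changes, and chance alone passes some of many genes. In baseline Jarid2 KO against Control, Cdkn1a (1.66) and the adhesion receptor Selp (0.96) had a higher change in megakaryocyte-primed cells. The B-lineage genes Ebf1 (-4.22), Cd79a (-4.13), Igll1 (-2.79) and Vpreb1 (-1.92), the neutrophil granule genes Ctsg (-3.57) and Mpo (-1.73) and the globin gene Hbb-bt (-0.95) had a lower one. Cd79a and Igll1 had 3 or fewer UMIs in the Jarid2 KO megakaryocyte-primed cells, so their fitted values depend on the prior count and are no measure of size. The value of Ebf1 rests on few UMIs there as well.

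In baseline Ezh2 KO the lymphoid genes Dntt (1.66), Ighm (1.39), Satb1 (1.01) and Lax1 (0.95) and the mast cell protease Cpa3 (1.54) had a higher change in megakaryocyte-primed cells, and Serpine2 (-1.77) a lower one. In the transplant libraries the centromere gene Cenpf differed by 1.27 for Jarid2 KO. Cpa3 (3.51) and the early-response gene Egr1 (-2.21) differed for Ezh2 KO, Cpa3 against a Control of 3 UMIs. No cause was tested for any of these.

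The share of megakaryocyte-primed cells in Ezh2 KO against Control had a log2 ratio of -0.81 at baseline and 0.66 after transplantation. The transplant excess was not seen with at least 3 markers (-0.0019) or with cells thinned to 5000 UMIs (-0.16). Fosb fell by 0.65 on the log2 scale in baseline Ezh2 KO (edgeR adjusted p = 0.0491), while its transplant value of 0.21 ± 0.43 (SE) did not pass (adjusted p = 0.998) and rests on 1 Control library. In both cases every Ezh2 KO library lay below the Controls at baseline and above the Control after transplantation, and the difference between the experiments was not tested. Antibody features are listed for the transplant matrices as well, and 969 of 28485 kept transplant cells had at least 1 antibody count, although the labels describe antibody staining for the baseline cells only.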

How the results depend on the processing

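Counts of called genes depended on the settings more than directions did. With Jarid2 KO over Control named first, Ezh2 KO over Control next and Jarid2 KO over Ezh2 KO last, the baseline counts of 20, 32 and 82 became 7, 9 and 17 with DESeq2, 102, 131 and 256 without a filter on low counts, 4, 9 and 21 without predicted doublets, and 3, 9 and 24 with no sex term, which is the fit without the replicate block. Without cells that carry 2 of the lymphoid marker genes the last became 48. With at least 5 of 6 markers they became 19, 32 and 68, which held 8, 19 and 43 of the original calls. Without Jarid2 KO replicate 1 the last 2 were 101 and 98, and without replicate 2 both were 100. The transplant counts of 1, 4 and 17 became 0, 1 and 3 with DESeq2, 4, 15 and 34 without the filter, and 26, 79 and 119 with male cells only. With at least 5 of 6 markers the first and last of these became 15 and 31. The first became 0 without predicted doublets and 2 without cells that carry 2 of the lymphoid marker genes. With the replicate number as a block over the 4 knockout libraries the last became 9, and 8 without it over the same libraries. The correlation of same-numbered deviations was 0.094 over 1525 genes, so the transplant numbers were not taken as pairs. Interaction counts with DESeq2 became 2 (Jarid2 KO) and 27 (Ezh2 KO) at baseline and 0 and 0 after transplantation. In the transplant libraries alone 2362 genes differed between megakaryocyte-primed and other cells.

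Leaving out 1 library at a time gave 14 to 56, 41 to 101 and 98 to 185 genes at baseline, 2 to 72, 5 to 36 and 12 to 68 after transplantation, and interaction counts of 49 to 76 and 56 to 299 at baseline and 1 to 29 and 1 to 39 after transplantation. Log2 share ratios then ran from -1.003 to -0.10, -1.19 to -0.29 and -0.0073 to 0.35 at baseline, and from -2.12 to -0.67, 0.41 to 0.87 and -2.78 to -1.33 after transplantation. The transplant share ratio of Ezh2 KO to Control became -0.0019 with at least 3 markers, -0.16 thinned, 1.06 with a stricter cell filter and 2.29 with male cells only, where that of Jarid2 KO to Control became 0.54.

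Gene values that changed sign were Mpo in baseline Jarid2 KO (0.012 without doublets) and, against other cells, Sult1a1 (-0.46) and Cdkn1c (-0.23) with at least 5 markers and Ms4a3 (0.062) in baseline libraries alone. In transplant libraries alone these were Mcm3 (-0.086), Ccnd2 (-0.034), Sult1a1 (-0.17), Mcm5 (-0.017), Lyz2 (-0.097), Klf6 (0.057), Clu (-0.50), Nr4a1 (0.51) and Ccnd3 (0.29). The cause was not tested in any case. The comparison with erythroid-primed cells could not be run in transplant libraries, which hold too few of them. The alternatives without lymphoid marker cells and without the block over the knockout libraries were chosen after seeing the data, as were the shares within each sex.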
